A study of Mus musculus with 9 samples.

Results

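Mouse knee chondrocytes cultured with interleukin-1β (IL-1β) together with recombinant SFRP5 were compared with chondrocytes cultured with neither. That comparison uses 6 of the 9 libraries in the series, 3 labelled as control and 3 as IL-1β plus SFRP5, and the other 3 libraries, from cells given IL-1β alone, serve as the reference. The groups were taken from the sample titles and treatment labels. All 9 libraries carry the genotype label WT. Per the labels' protocols, cartilage was taken from mouse knee joints, digested overnight with collagenase D, and the isolated chondrocytes were cultured in serum-containing DMEM before total RNA was made into paired-end, strand-marking libraries. Dose and duration of either agent, and age and sex of the mice, are not stated in the labels. No library received SFRP5 without IL-1β, so every difference below is that of the combined treatment. Nothing in the labels says that replicates came from separate mice or separate cultures, so the p-values reflect only how much these libraries vary, and that variation may be technical.

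IL-1β is a cytokine that cartilage cells sense through the IL-1 receptor, which signals to the transcription factor NF-κB and to MAP kinases. In chondrocytes it is known for raising matrix-degrading proteases, chemokines, prostaglandin and nitric oxide enzymes, and for lowering the collagens and proteoglycans of cartilage. SFRP5 is a secreted frizzled-related protein, a soluble factor that binds Wnt ligands and so keeps them from their frizzled receptors on the cell surface. A comparison of the doubly treated cells with control cells shows how far the combined treatment stays from control. That distance holds both what is left of the IL-1β response and any effect of SFRP5 itself.

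Each library held between 15795985 and 20688963 counts assigned to genes. Levels are given as CPM, counts scaled to a common library total with TMM factors; the scaling adjusts for differences in RNA composition between libraries, and 3 counts correspond to 0.135 to 0.195 CPM. Counts of the 10 top genes made up 19.3% to 19.6% of a control library and 14.6% to 15% of one with IL-1β plus SFRP5. Transcripts of the mitochondrial genome took 1.26% to 1.44% in all 9 libraries. The chondrocyte label was checked against its defining transcripts: Acan, the core protein of the aggregating proteoglycan of cartilage, stood at 9859.8, 9549.9 and 9582 CPM in the 3 control libraries, and Sox9, a master regulator of cartilage formation, at 339, 324 and 326 CPM. Endogenous Sfrp5 was at 3.13, 4.79 and 5.13 CPM in untreated cells and had 1 count in the 3 libraries with IL-1β plus SFRP5 together, where control was higher by a ratio of 230 (95% exact interval 40.9 to 9100). With IL-1β alone it likewise had 1 count, a ratio of 221 (39.3 to 8740). The added protein does not appear in such a measurement.

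Most genes still differed from control when SFRP5 accompanied IL-1β. Of 15502 genes tested, 5788 were higher (37.3%) and 6040 lower (39%), together 76.3%, at an adjusted p under 0.05 in edgeR's quasi-likelihood test, the threshold meant below by "called", "rose" and "fell". At least 2-fold changes were called for 2661 genes that rose (17.2%) and 2948 that fell (19%). In 12122 genes (78.2%) no library with IL-1β plus SFRP5 overlapped a control library. In bulk RNA, fewer cells of a type and less RNA per cell cannot be told apart, so a lower level may be either. With IL-1β alone 78.9% of the genes were called against the same 3 control libraries, and 31.3% were called between the doubly treated cells and cells given IL-1β alone. Both differences from control share their control libraries and are therefore set side by side below, without a correlation between them.

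The residual change was smaller than the IL-1β change by a modest amount over the whole range of sizes. Over all genes tested, the median absolute log2 difference from control was 0.754 with IL-1β and 0.677 with IL-1β plus SFRP5. Among the 1466 genes that IL-1β raised by 1 to 2 on the log2 scale, the median log2 difference was 1.38 with IL-1β and 1.24 with both. For the 222 genes that it raised by more than 6, these medians were 7.4 and 6.78. On the lowered side the distance was wider: the 145 genes lowered by more than 6 had a median of −7.13 with IL-1β and of −5.71 with both, while the 1738 genes lowered by 1 to 2 had medians of −1.39 and −1.18. The plot of medians by size of the IL-1β change shows these bands. Bands were chosen on the IL-1β difference, whose control libraries are shared, so they are given as a description.

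**Figure D1:**
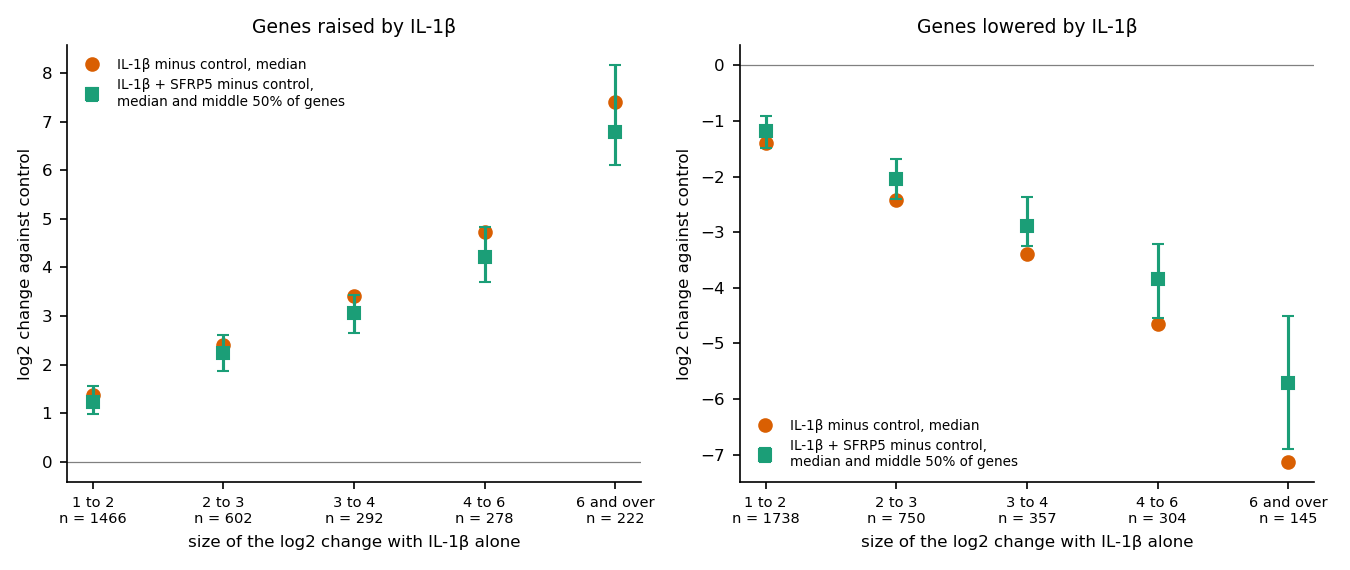
Median log2 difference from control (vertical axis) for genes grouped by the size of their IL-1β change (horizontal axis, log2), in genes raised (left) and lowered (right) by IL-1β. Orange circles are IL-1β alone and green squares are IL-1β plus SFRP5. Bars span the middle 50% of genes of a band with IL-1β plus SFRP5, and the number of genes stands at each band. In every band the median with IL-1β plus SFRP5 lies nearer to 0 than that with IL-1β alone, as 1.24 against 1.38 in the smallest raised band and −5.71 against −7.13 in the largest lowered band.

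The genes were sorted by both differences. A gene is "partly back" when both treated groups were called on the same side of control and the doubly treated cells were called nearer to control than cells given IL-1β alone. That held for 2858 genes (18.4%), 1558 of them raised and 1300 lowered. A gene is "further" when it was called against control and called in the same direction against IL-1β alone, which held for 1216 genes (7.84%), 736 higher and 480 lower. Of those, 388 were not called with IL-1β alone. A gene is "past control" when IL-1β moved it one way and the combined treatment was called on the other side of control, which held for 87 genes (0.561%), 46 higher and 41 lower. A gene is "back at control" when IL-1β changed it at least 2-fold, the combination was called against IL-1β in the opposite direction, and the whole 95% interval of its difference from control lay within ±0.5 on the log2 scale; that held for 17 genes (0.11%), 4 raised and 13 lowered by IL-1β. The largest class, 7151 genes, was called against control on the same side in both treated groups with no called difference between them. These classes follow from the same 9 libraries, and their counts are a description of the sorting.

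The largest increases left in the presence of SFRP5 included chemokines, Il6, Nos2 and Mmp3. Nos2, the inducible nitric oxide synthase, was at 0.101, 0.0903 and 0.0508 CPM in untreated cells, 2585, 2543 and 2389 CPM with IL-1β and 2583, 2591 and 2634 CPM with IL-1β plus SFRP5. The treated groups overlap each other, lie far above all control libraries, and were not called apart (edgeR adjusted p = 0.223). Its log2 difference from control was 14.85 ± 0.43 (SE), with 5 counts in all control libraries together. Cxcl2, a chemokine that draws neutrophils, had 2 counts in control, and stood at 1491, 1358 and 1346 CPM with IL-1β against 369, 362 and 335 CPM with both. The doubly treated libraries thus lie below every IL-1β library and above every control library. The ratio to control was 11000 (95% exact interval 3040 to 90600). Such intervals, and the bounds given for genes with no count, cover counting error only. Ccl20, a chemokine for dendritic and T cells, had no count in control and 118, 124 and 116 CPM with both, which is at least 2440-fold higher with the control group set to 3 counts. Il6, the cytokine interleukin-6, had 1 count in control and 169, 159 and 159.5 CPM with both, and all 3 values lie below the 281, 257 and 255 CPM of IL-1β alone.

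Mmp3, the matrix protease stromelysin-1, was at 1.31, 1.94 and 2.23 CPM in control cells, 33212, 33934 and 34687 CPM with IL-1β and 17262, 17396 and 17356 CPM with both. The 3 groups do not overlap, and the doubly treated level was still 13.20 ± 0.10 above control on the log2 scale (SE; edgeR adjusted p = 7.07e-37). Saa3, a serum amyloid A protein of the acute phase, stood at 0.434 ± 0.381, 13037 ± 573 and 7156 ± 259 CPM (mean ± SD, n = 3 in each group, in the order control, IL-1β, both). The other genes among the 10 largest increases were H2-Q2, Trdc, Saa2 and Saa1, all without a count in control, and at least 812-fold, at least 652-fold, at least 467-fold and at least 455-fold higher. H2-Q2, a class I histocompatibility gene, and the serum amyloids Saa1 and Saa2 have close copies in the genome, and how the counting divided reads between copies is not given, so their values are uncertain. Trdc, the constant segment of a T cell receptor chain, was at 160.3, 160.5 and 139.8 CPM with IL-1β and 34.5, 31.1 and 28.9 CPM with both.

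The largest decreases left were in genes with little or no expression in either treated group. Smpd3, a sphingomyelinase needed for cartilage and bone mineralization, was at 851, 851 and 850.2 CPM in control and 0.740, 0.846 and 0.295 CPM with both, a log2 difference of −10.39 ± 0.23 (SE). With IL-1β alone it was at 0.425, 0.303 and 0.683 CPM, which overlaps the doubly treated libraries. Cdkn1c, an imprinted inhibitor of cell division, went from 331 ± 5.51 CPM in control to 1.02 ± 0.444 with IL-1β and 2.02 ± 0.179 with both (mean ± SD, n = 3). Gdf10, a BMP-family growth factor, had 2 counts in all IL-1β libraries and 22 in the doubly treated ones, against 64.7 ± 3.73 CPM in control. Both genes were partly back, at log2 differences from control of −7.34 ± 0.14 and −7.25 ± 0.29 (SE). Aldh1a7, an aldehyde dehydrogenase, and Calml3, a calmodulin-like protein, had no count with both agents and were at least 324-fold and at least 153-fold lower. The connexin Gjc3, Cmtm5 and Smim5 each had 1 count with both, and Slc16a14 and Ncmap had log2 differences of −8.15 ± 0.50 and −7.30 ± 0.40 (SE). The other 8 of these 10 genes were not called between the treated groups.

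Promoter sequence is shown for 4 genes that stand for the outcomes described here. Cxcl2 and Mmp3 were raised by IL-1β and partly back, and Ptx3 was raised further. Col3a1 was lowered and lay within the bound for back at control, though still called below control. Each run is the 250 bases before the annotated start in RefSeq on mouse build GRCm38.p6, 5′ to 3′ on the gene's strand, all on the plus strand: Cxcl2 at chr5:90903649-90903898, Mmp3 at chr9:7445572-7445821, Ptx3 at chr3:66219637-66219886 and Col3a1 at chr1:45311288-45311537. Capitals mark letters that match 1 of 4 motifs on either strand: GGG and CC with any 5 bases between them (NF-κB type), TGANTCA (AP-1 type), TTGCNNAA (C/EBP type) and ATCAAAG (TCF/LEF type).
Cxcl2: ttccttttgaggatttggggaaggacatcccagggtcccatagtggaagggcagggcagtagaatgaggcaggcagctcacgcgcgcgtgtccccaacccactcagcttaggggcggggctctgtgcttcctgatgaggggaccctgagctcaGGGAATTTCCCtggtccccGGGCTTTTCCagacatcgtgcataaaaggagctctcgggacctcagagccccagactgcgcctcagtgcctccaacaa
Mmp3: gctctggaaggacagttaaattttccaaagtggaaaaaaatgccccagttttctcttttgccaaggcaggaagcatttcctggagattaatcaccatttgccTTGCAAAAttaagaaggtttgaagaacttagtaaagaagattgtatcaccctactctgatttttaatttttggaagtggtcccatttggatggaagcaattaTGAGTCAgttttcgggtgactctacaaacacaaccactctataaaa
Ptx3: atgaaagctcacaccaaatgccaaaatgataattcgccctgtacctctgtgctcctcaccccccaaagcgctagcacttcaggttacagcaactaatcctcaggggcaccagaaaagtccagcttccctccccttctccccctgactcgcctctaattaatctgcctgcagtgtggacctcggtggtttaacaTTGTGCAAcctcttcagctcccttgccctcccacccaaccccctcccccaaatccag
Col3a1: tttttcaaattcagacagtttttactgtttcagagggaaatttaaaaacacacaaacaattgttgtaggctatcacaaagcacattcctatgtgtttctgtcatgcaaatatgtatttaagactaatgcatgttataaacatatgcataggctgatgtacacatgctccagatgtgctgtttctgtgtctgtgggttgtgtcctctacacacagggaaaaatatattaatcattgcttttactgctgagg
Cxcl2 holds 3 matches of the NF-κB type, of which a pair overlap on opposite strands, Mmp3 holds 1 match of the AP-1 type and 1 of the C/EBP type, Ptx3 holds 1 of the C/EBP type, and Col3a1 holds none of the 4. Such short motifs are common: of the 14019 windows of tested genes, 60.8% hold the NF-κB type, 4.71% the AP-1 type, 7.43% the C/EBP type and 2.29% the TCF/LEF type. A start was matched by symbol for 10957 of the 15502 tested genes. Among windows of genes called at least 4-fold higher with IL-1β plus SFRP5, the shares were 59.2%, 9.46%, 9.93% and 2.53%. Among windows of the genes raised further than with IL-1β alone they were 63.5%, 5.31%, 7.3% and 1.73%, and among those lowered at least 4-fold 60.1%, 5.53%, 7% and 2.4%. A match describes the letters of a window and is no evidence of binding.

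Prg4, Cebpd, Vnn1, Ptx3 and Adamts5 belong to the genes that stood higher with both agents than with IL-1β alone. Prg4 encodes lubricin, the boundary lubricant of the joint surface made by superficial chondrocytes and synovial cells. Its level was 64.9, 63.9 and 67.4 CPM in untreated cells, 508, 479 and 439 CPM with IL-1β and 834, 862 and 837 CPM with IL-1β plus SFRP5. Each group lies wholly above the one before it, and the log2 difference from control was 3.69 ± 0.046 (SE) with both agents against 2.86 ± 0.046 with IL-1β (edgeR adjusted p = 6.33e-14 between them). Cebpd, the transcription factor C/EBPδ of the acute phase response, was at 9.85, 10.2 and 11.8 CPM in control cells, 81.6, 85.4 and 75.7 CPM with IL-1β and 193, 193 and 198 CPM with both. Again no libraries overlap between groups, and the doubly treated cells were 18.4-fold above control and 2.41-fold above IL-1β alone. Vnn1, a pantetheinase that yields cysteamine, was at 4.24, 3.79 and 4.52 CPM, then 106, 103 and 91.4 CPM with IL-1β and 273, 269 and 256 CPM with both, so that even the lowest doubly treated library is above the highest IL-1β library. Its log2 difference from control was 5.99 ± 0.094 with both agents and 4.58 ± 0.10 with IL-1β (SE).

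Ptx3, the long pentraxin that is secreted at sites of inflammation and takes part in hyaluronan-rich matrix, was at 199.9, 207 and 206 CPM in untreated cells, 342, 370.3 and 407 CPM with IL-1β and 802, 768 and 911 CPM with both. All doubly treated libraries lie above all others, and the difference from control was 2.02 ± 0.055 on the log2 scale (SE), against 0.87 ± 0.056 with IL-1β. Adamts5, the main aggrecan-cleaving protease of mouse cartilage, was not called with IL-1β alone, although close to the threshold. Its level was 58.2, 56.6 and 61.1 CPM in control cells, 58.6, 69.5 and 66.4 CPM with IL-1β and 140.2, 134 and 164 CPM with both. The doubly treated libraries lie above all 6 others, 2.49-fold over control (log2 1.32 ± 0.065, SE; edgeR adjusted p = 1.06e-15) and 2.25-fold over IL-1β alone. IL-1β alone against control had a log2 difference of 0.15 ± 0.068 and an adjusted p of 0.0548. That difference was called when the third control library (0.0481), the first IL-1β library (0.0033) or the first (0.0476), second (0.0193) or the third (0.0181) doubly treated library was left out. It was also called with RLE factors (0.0292), by DESeq2 (0.0362), without the low-count filter (0.00532) and with the replicate block (0.0319). It was not called with upper-quartile factors (0.981) or robust dispersions (0.0802). Nor was it called without control library 1 (0.108) or 2 (0.172), or without IL-1β library 2 (0.154) or 3 (0.0701). Whether IL-1β alone moved Adamts5 thus depends on the setting. The call with both agents was kept in each of these settings. The plot of single libraries shows these 5 genes with 7 others.

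**Figure D2:**
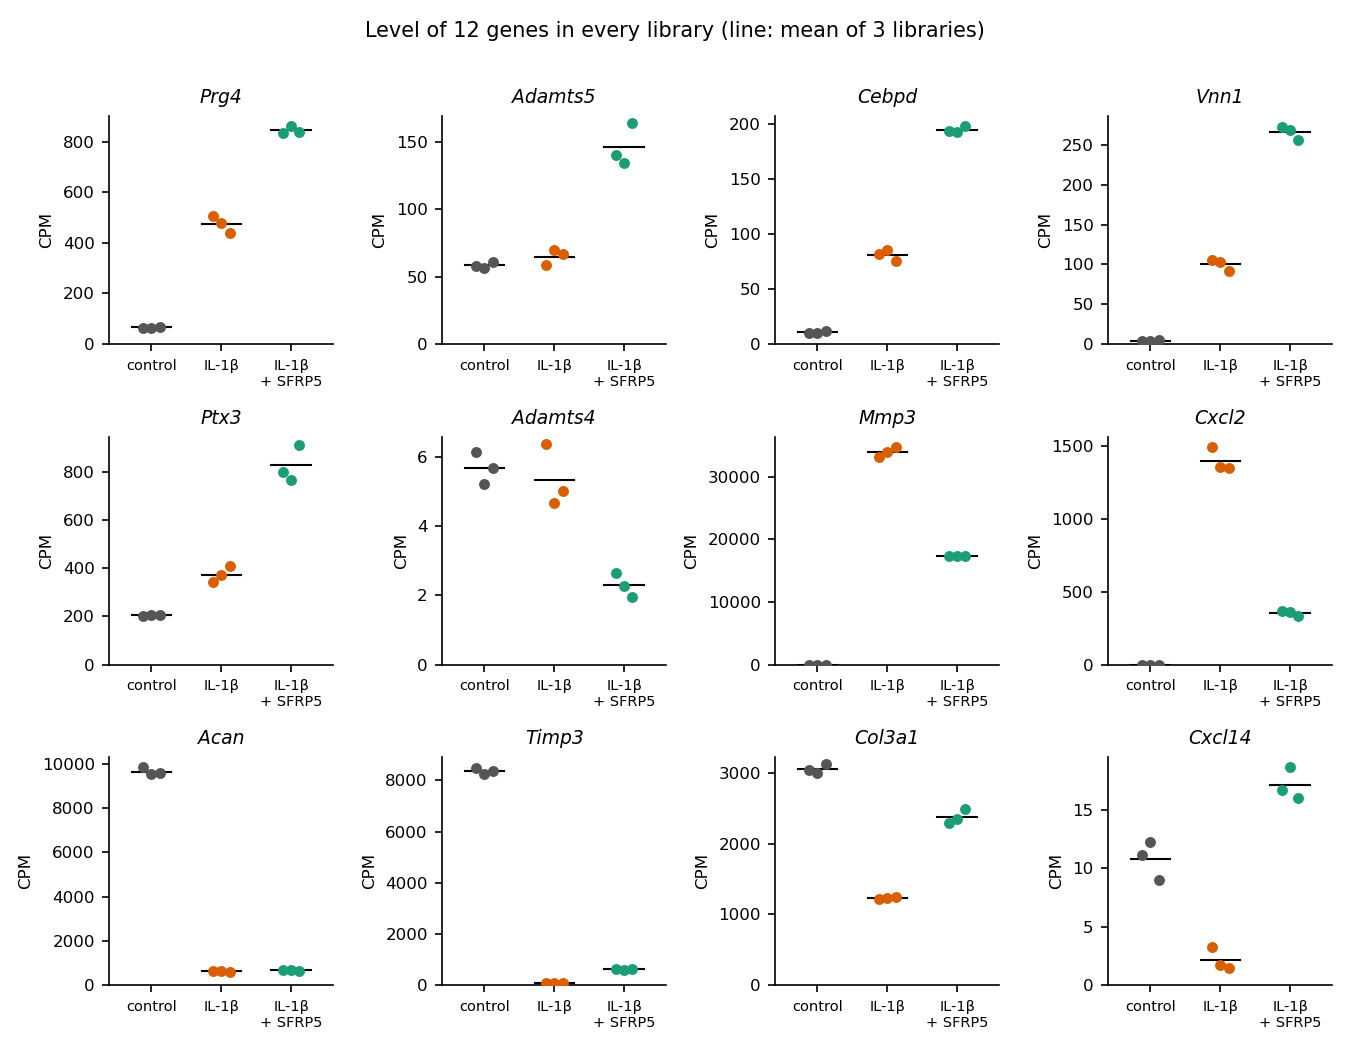
Level in CPM (vertical axes, linear, each starting at 0) of 12 genes in each of the 9 libraries, in the order control, IL-1β, IL-1β plus SFRP5; each point is 1 library and the line is the mean of 3. Prg4, Adamts5, Cebpd, Vnn1 and Ptx3 are highest with both agents. Mmp3, Cxcl2 and Col3a1 lie between control and IL-1β, with Col3a1 nearer to control, and Acan stays near its IL-1β level.

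Other genes raised beyond their IL-1β level cover several roles. Tnfaip6, a secreted protein that remodels hyaluronan during inflammation, was at 2.58, 3.39 and 3.71 CPM in untreated cells, 8.02, 9.26 and 7.51 CPM with IL-1β and 19.9, 17.1 and 19.8 CPM with both, without overlap. Npas2, a circadian partner of the clock proteins, rose to 11.9 ± 1.79 CPM from 2.78 ± 0.156 in control, with 3.98 ± 0.471 CPM under IL-1β (mean ± SD, n = 3). Arl14epl had no count in control, 84 counts with IL-1β and 327 with both, which is at least 128-fold above control. Fam110c had a log2 difference from control of 5.58 ± 0.67 (SE) with both and of 4.04 ± 0.68 with IL-1β. Gda, a guanine deaminase, was not called with IL-1β alone and stood at 10.2, 9.30 and 11.8 CPM with both against 4.19, 6.05 and 4.77 CPM in control. These genes head the list by size of the difference between the treated groups, so that difference describes them and does not test them.

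Transcription factors made up 74 of the 736 genes that were further and higher (10.1%) and 12 of the 480 that were further and lower (2.5%), beside 1045 of all 15502 tested (6.74%). Fosl2, an AP-1 subunit, was at 158 ± 2.97 CPM in control, 480.1 ± 6.13 with IL-1β and 681 ± 51.2 with both (mean ± SD, n = 3). Runx1, a regulator of early chondrocyte differentiation, went from 53.7 ± 3.06 to 121 ± 3.17 and 161 ± 1.44 CPM in the same order. Myc, a driver of growth and ribosome synthesis, had log2 differences from control of 1.49 ± 0.068 with IL-1β and 1.90 ± 0.067 with both (SE). Klf4 and Klf9, zinc-finger factors, had 1.51 ± 0.05 and 0.94 ± 0.055. Fos, the founding AP-1 subunit, is an exception in direction: it was at 17.1, 16.7 and 18.7 CPM in control cells, 3.04, 2.00 and 1.65 CPM with IL-1β and 1.73, 1.04 and 1.36 CPM with both. The libraries with both agents lie far below control and overlap those with IL-1β alone, although the pair of treated groups was called apart (adjusted p = 0.0465). Tsc22d1, a leucine-zipper factor that responds to TGF-β, was not called with IL-1β alone (739 ± 21.3 CPM against 731 ± 5.66 in control) and was at 1356 ± 52.5 CPM with both. These factors, like other members named from the pathway lists, were picked after their values were seen.

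Of the genes further from control than with IL-1β alone, 480 lay on the lower side and 736 on the higher side. Adamts4, the other classic aggrecanase, was at 6.16, 5.24 and 5.69 CPM in untreated cells, 6.38, 4.66 and 5.01 CPM with IL-1β and 2.66, 2.28 and 1.95 CPM with both. The doubly treated libraries lie below all others, a log2 difference of −1.30 ± 0.19 from control (SE; edgeR adjusted p = 9.26e-07), while IL-1β alone was not called (adjusted p = 0.633). Adamts4 and Adamts5 thus differed from control in opposite directions in the combined treatment. Fjx1, a Golgi protein of planar cell polarity, was at 9.40, 9.66 and 10.8 CPM, then 5.10, 4.30 and 3.24 with IL-1β and 1.18, 1.17 and 1.18 with both. Melk, a kinase of dividing cells, had 10.7 ± 0.821, 5.78 ± 0.216 and 2.20 ± 0.331 CPM (mean ± SD, n = 3, in the same order). Mcoln2, a lysosomal cation channel, Tenm2, a teneurin of cell adhesion, Wwc1, a Hippo pathway scaffold, Atp1b1, a sodium pump subunit, and Mfsd6 were not called with IL-1β alone and had log2 differences from control of −1.61, −1.63, −1.21, −1.52 and −1.14 with both. Their SEs ran from 0.13 for Mfsd6 to 0.23 for Tenm2.

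The 17 genes back at control lay within narrow intervals of it, yet 10 of the 17 were still called against control, by small amounts. Col3a1, the type III collagen chain, was at 3041, 2998 and 3129 CPM in control cells, 1217, 1233 and 1240.1 CPM with IL-1β and 2297, 2342 and 2495 CPM with both. The doubly treated libraries lie between the other groups without overlap, at a log2 difference from control of −0.36 ± 0.033 (SE; interval −0.43 to −0.29). Sdc2, the heparan sulfate proteoglycan syndecan-2, was at 373, 367 and 370.0 CPM, 149.8, 152 and 149.9 CPM and 325, 336 and 325 CPM in the same order, again without overlap, at −0.17 ± 0.036 from control. Masp1, a serine protease of the complement lectin pathway, fell most with IL-1β among the 17: it was at 34.3, 29.5 and 30.8 CPM in untreated cells, 6.14, 5.57 and 4.44 CPM with IL-1β and 28.5, 27.3 and 28.1 CPM with both. Its doubly treated libraries lie just below the control libraries, and the difference of −0.17 ± 0.079 (SE) was not called (edgeR adjusted p = 0.0529). It was called without the second control library (−0.22; adjusted p 0.0317), with the replicate block (−0.172; 0.0437), in a fit of the 6 compared libraries alone (−0.155; 0.0419) and with upper-quartile scaling (−0.305; 0.00118).

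Prelp, a leucine-rich proteoglycan that anchors collagen to basement membranes, was the cartilage matrix gene among the 17. It stood at 185, 198 and 197 CPM in control cells, 95.6, 95.2 and 88.6 CPM with IL-1β and 179.8, 185 and 191 CPM with both, and the control and doubly treated libraries overlap (log2 −0.062 ± 0.044, SE; adjusted p = 0.204). The other genes that overlapped control were Mecom, a zinc-finger transcription factor, at −0.051 ± 0.13, Rab29, a small GTPase of the Golgi and lysosomes, at −0.17 ± 0.15, and Pcdh9, a protocadherin, at −0.059 ± 0.089 on the log2 scale. Zfp503, a zinc-finger repressor, was not called either (−0.15 ± 0.087). The genes lowered by IL-1β that were back within the bound but still called were St3gal5 at −0.33 ± 0.071, Fndc1 at −0.35 ± 0.047, Creb3l1 at −0.38 ± 0.052, Plce1 at −0.25 ± 0.086 and Cxxc5 at −0.36 ± 0.068, beside Col3a1 and Sdc2. St3gal5 makes the ganglioside GM3, Creb3l1 is a membrane-bound factor that drives collagen secretion, and Plce1 is a phospholipase C. Plce1 lost its call without the first (adjusted p 0.0653) or the second (0.0911) doubly treated library. On the raised side, Traf3, an adaptor that restrains non-canonical NF-κB signalling, was at 51.8, 55.2 and 53.6 CPM in untreated cells, 114, 109 and 111 CPM with IL-1β and 66.3, 61.9 and 62.7 CPM with both, which lies above control without overlap (0.25 ± 0.049). Hgsnat, a lysosomal enzyme of heparan sulfate breakdown, was at 0.25 ± 0.059 and Vdac3-ps1, a pseudogene whose reads may be shared with Vdac3, at 0.31 ± 0.073. Kctd11, which antagonizes Hedgehog signalling, was not called (−0.20 ± 0.094). It was called without the second control library (−0.251; adjusted p 0.0354) and with upper-quartile scaling (−0.338; 0.00219). The count depends on the bound: the interval of Cxxc5 ends at 0.498 from 0 and that of Creb3l1 at 0.489, while Fgf2 at 0.503 and Vegfd at 0.512 fell just outside. Leaving out the second control library gave 10 lowered and 3 raised genes, and leaving out the first IL-1β library gave 23 lowered. A bound of 0.25 left 3 lowered genes and no raised one, a bound of 1 gave 159 and 128, and upper-quartile scaling gave 8 lowered. With that scaling 14 genes were back at control, and 6 of the 17 were among them. Prelp (−0.196; adjusted p 0.000262) and Zfp503 (−0.285; 0.00467) were then called against control, and Hgsnat was not (0.111; 0.0907).

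In 87 genes the combined treatment lay beyond control on the side opposite to IL-1β. The shifts were small, with a median absolute log2 difference from control of 0.273. Without the first control library 25 genes, in place of 41, were past control on the lower side. Upper-quartile scaling shifted all genes by a median of −0.134, and most genes of the higher side then lost their call against control. Among them were Emb (0.0783, edgeR adjusted p 0.106), Amotl2 (0.0581, 0.343) and Slc38a2 (0.0078, 0.862). Gpc6 (−0.00829) and Mgat1 (−0.00244) changed sign. The higher genes named next kept their call with that scaling. Grb14, an adaptor that inhibits insulin receptor signalling, was at 33.9, 31.1 and 30.7 CPM in control cells, 27.6, 29.0 and 27.5 CPM with IL-1β and 78.4, 77.3 and 76.9 CPM with both. The doubly treated libraries lie above all others, at 2.43-fold over control (edgeR adjusted p = 3.52e-17). Cxcl14, a chemokine made by resting tissue, was at 11.1, 12.2 and 8.99 CPM in untreated cells, 3.22, 1.70 and 1.48 CPM with IL-1β and 16.7, 18.7 and 16 CPM with both, so it fell by 5.08-fold with IL-1β and rose by 1.58-fold with the combination. Sgk1, a kinase induced by glucocorticoids and osmotic stress, was at 95.1, 92.8 and 93.4 CPM, 53.3, 55.9 and 63.4 CPM and 144, 139 and 153 CPM in the same order, without overlap. Efemp2, an elastic fibre protein, Bnc2, a zinc-finger factor, and Scx, the transcription factor scleraxis of tendon cells, rose by 0.62 ± 0.037, 0.66 ± 0.10 and 0.60 ± 0.16 on the log2 scale (SE).

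In the other direction, Zfp36, the RNA-binding protein tristetraprolin that speeds the decay of cytokine messages, was at 31.8, 27.1 and 28.6 CPM in control cells, 35.1, 34.2 and 33.5 CPM with IL-1β and 19.2, 18.6 and 20.5 CPM with both. All doubly treated libraries lie below all others (log2 −0.59 ± 0.075 from control, SE). Bmp6, a bone morphogenetic protein, had 8.95 ± 0.484, 11.1 ± 1.42 and 6.33 ± 0.772 CPM, and Prkcd, protein kinase Cδ, had 29.5 ± 0.516, 33.4 ± 2.89 and 21.7 ± 2.64 CPM (mean ± SD, n = 3, in the order control, IL-1β, both). Cemip, a hyaluronan-degrading protein, was at 31.0, 33.3 and 32.1 CPM in untreated cells, 73.9, 66.8 and 68.5 CPM with IL-1β and 21.2, 25.4 and 27.9 CPM with both. Its doubly treated libraries are the lowest of the 9. Ntng2, a netrin-G, Il17rd, an antagonist of FGF signalling, and Pitpnm3 had −0.69 ± 0.11, −0.63 ± 0.19 and −0.50 ± 0.18. Pitpnm3 lost its call without the first control library (adjusted p 0.0731) or the second doubly treated library (0.0796). The opposite change with IL-1β alone was near the threshold in Prkcd (0.18, edgeR adjusted p 0.0418), Ntng2 (0.23, 0.0439) and Il17rd (0.38, 0.0447). It was clearer in Bmp6 (0.31, 0.0249), Zfp36 (0.23, 0.00434), Pitpnm3 (1.12, 3.24e-07) and Cemip (1.12, 1.38e-13). Whether these IL-1β calls hold in other settings was not tested gene by gene. The plot of log2 differences sets both treated groups side by side for these genes.

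**Figure D3:**
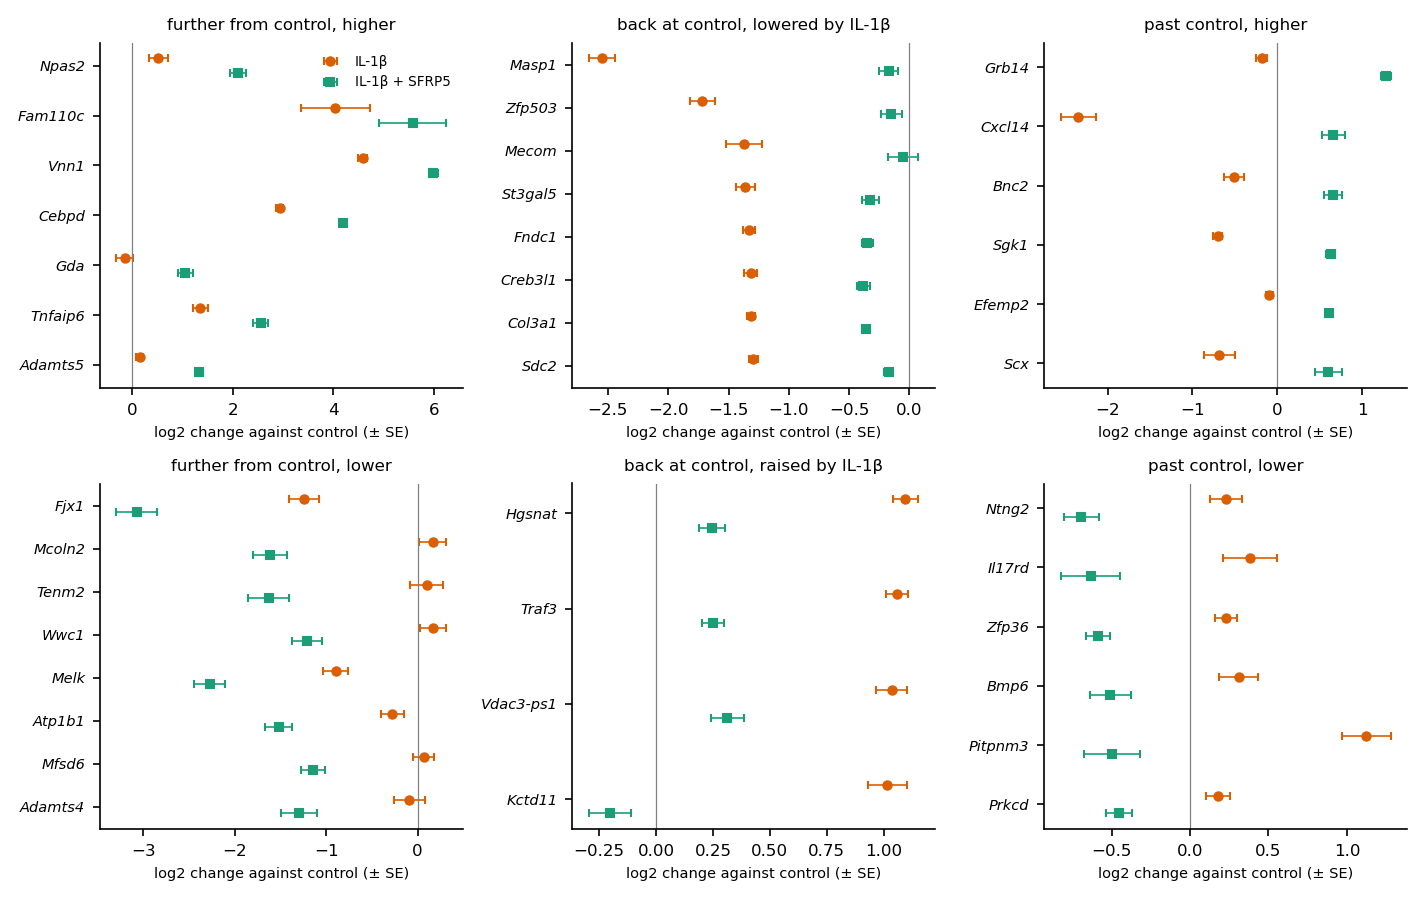
Log2 difference from control (horizontal axis) with its SE as a bar for genes further higher, further lower, back after lowering, back after raising, past control higher and past control lower, with IL-1β alone and with IL-1β plus SFRP5. Vnn1 moves outward from 4.58 to 5.99, Masp1 inward from −2.55 to −0.17, and Cxcl14 from −2.35 across 0 to 0.66.

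Genes were next read by role, in lists whose share lower, not called and higher is drawn in the plot of gene lists. Over all 15502 genes the median log2 difference from control was −0.0232, with 37.3% higher and 39% lower, 18.4% partly back and 7.84% further; each list's counts stand against these shares. No list was tested as a set.

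**Figure D4:**
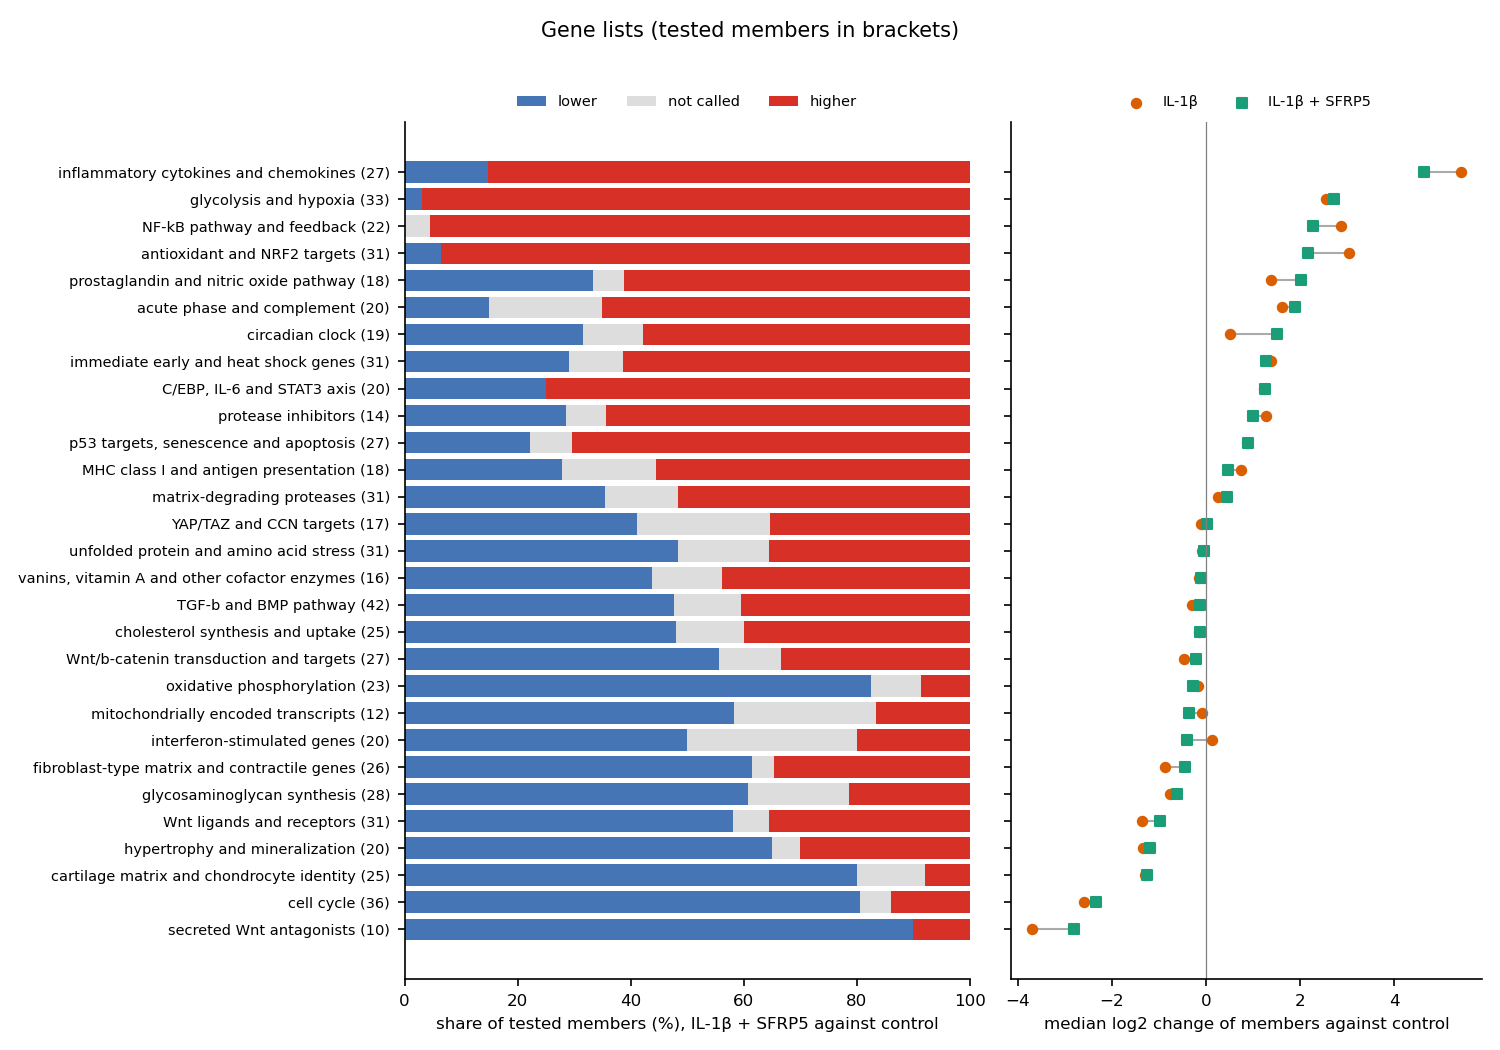
For each gene list, the share of tested members called lower, not called and called higher with IL-1β plus SFRP5 against control (left, percent), and the median log2 difference from control of IL-1β alone and of IL-1β plus SFRP5 (right). Cytokines, glycolysis and antioxidant lists lie to the right of all genes (medians 4.63, 2.71 and 2.17), and secreted Wnt antagonists, cell cycle and cartilage matrix lie to the left (−2.81, −2.34 and −1.26).

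Genes of cartilage matrix and chondrocyte identity stayed low. Of 25 tested, 20 fell, 2 rose (Prg4 and Cilp2) and 3 were not called, with a median log2 difference of −1.26, beside −1.29 with IL-1β alone. Acan, at the control level given above, was at 634, 643 and 594 CPM with IL-1β and 682, 687 and 638 CPM with both. The treated groups differ little beside their distance from control, which was 14.4-fold with both agents (log2 −3.85 ± 0.034, SE; edgeR adjusted p = 1.51e-30). Col2a1, the main collagen of cartilage, was at 74835, 73331 and 75321 CPM in control cells, 14786, 15764 and 15667 CPM with IL-1β and 19852, 21085 and 21365 CPM with both. Its doubly treated libraries lie above those with IL-1β alone and below control, at a log2 difference of −1.84 ± 0.028 (SE). Hapln1, the link protein that ties aggrecan to hyaluronan, went from 1232 ± 11.2 CPM in control to 68.0 ± 1.86 and 121 ± 2.03 CPM (mean ± SD, n = 3), and Matn3, a matrilin, from 111 ± 2.90 to 3.74 ± 0.836 and 4.22 ± 0.387 CPM.

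The chondrocyte transcription factors diverged. Sox9 was at 129 ± 4.42 and 130.2 ± 0.225 CPM in the treated groups (mean ± SD, n = 3), at a log2 difference from control of −1.34 ± 0.041 (SE), with an adjusted p of 0.892 between the treated groups. Sox6, a partner of Sox9, was partly back, at 187, 184 and 179 CPM in untreated cells, 18.3, 19.0 and 22.8 CPM with IL-1β and 49.6, 45.5 and 54.2 CPM with both, with the doubly treated libraries between the other groups. Sox5, the other partner, was at 59.9, 54.0 and 55.2 CPM, 35.3, 29.0 and 34.2 CPM and 58.9, 58.3 and 60.5 CPM. Its doubly treated and control libraries overlap, and their difference, with an interval of −0.051 to 0.20 on the log2 scale, was not called (adjusted p = 0.274). Of the matrix genes 8 were partly back, among them Comp, cartilage oligomeric matrix protein, at −0.72 ± 0.033, Snorc, a small membrane proteoglycan of cartilage, at −2.63 ± 0.09, and Epyc at −1.02 ± 0.049. Col11a2, a fibril-nucleating collagen chain, was further down with both (−1.11 ± 0.03, against −0.98 ± 0.03 with IL-1β).

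Enzymes that build glycosaminoglycan chains were also mostly low, with 17 of 28 fallen, 6 risen and a median log2 difference of −0.624. Xylt1, which starts the chains, was at 913 ± 15.8 CPM in control and 273 ± 6.86 with both. Csgalnact1, which commits them to chondroitin sulfate, was at 324, 331 and 330.2 CPM in control cells, 12.2, 13.4 and 11.9 CPM with IL-1β and 35.3, 29.4 and 33.6 CPM with both. It was partly back, with every doubly treated library above every IL-1β library. The sulfate transporter Slc26a2 and the sulfate-activating enzyme Papss2 were −4.48 ± 0.067 and −2.90 ± 0.051 from control and not called between the treated groups. Ugdh, which makes the glucuronic acid donor, rose by 2.53 ± 0.04. Among hyaluronan synthases, Has2 fell by 3.15 on the log2 scale and Has1 was further up, at 2.86, 2.41 and 2.66 CPM with both against 0.152, 0.181 and 0.254 CPM in control. With 12 counts in control, Has1 was abundant enough to be tested only through the treated groups. Its test against control could therefore only find it higher.

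Matrix-degrading proteases were split. Of 31 tested, 16 rose and 11 fell, with a median log2 difference of 0.449 (0.244 with IL-1β). The collagenase Mmp13 was at 32.2, 30.6 and 35.9 CPM in untreated cells, 4183, 4152 and 4022 CPM with IL-1β and 3123, 3136 and 3086 CPM with both. It was partly back like Mmp3, and the doubly treated libraries were still 94.7-fold above control. Mmp10, stromelysin-2, went from 237 ± 1.76 CPM with IL-1β to 36.4 ± 4.09 with both (mean ± SD, n = 3), over 6 counts in control, and Mmp12, the macrophage elastase, had a ratio to control of 462 (95% exact interval 158 to 2250). The plasminogen activators Plau and Plat stood at 1.5 ± 0.075 and 2.07 ± 0.094 with both (SE), against 2.83 ± 0.071 and 3.54 ± 0.089 with IL-1β. Further up were 5 proteases: Adamts5, Adamts1 (1.65 ± 0.067), Adam15 (0.43 ± 0.044), Adam12 (0.45 ± 0.069) and the lysosomal cathepsin Ctsb (0.60 ± 0.038). Further down were 3: Adamts4, Adamts12 (−3.66 ± 0.26) and Mmp14, the membrane collagenase (−0.61 ± 0.045).

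Protease inhibitors held both partial returns and further increases. Timp3, the matrix-bound inhibitor of aggrecanases, was at 8492, 8258 and 8357 CPM in control cells, 64.5, 68.1 and 62.7 CPM with IL-1β and 627, 599 and 608 CPM with both. The doubly treated level was 9.39-fold above IL-1β alone and 13.7-fold below control. Timp2 (−0.93 ± 0.036), Reck (−2.09 ± 0.056) and Cst3 (−0.63 ± 0.051) were partly back as well. Timp1, the inducible inhibitor, was further up, at 170.5, 169 and 165 CPM, 1091, 1059.8 and 932 CPM and 1246, 1279.6 and 1234 CPM in the order control, IL-1β, both, without overlap. Serpine2, A2m and Serpina3n were further up too. In all, 9 of 14 rose, 4 fell, and 5 were further than with IL-1β alone.

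Inflammatory cytokines and chemokines remained raised. Of 27 tested, 23 rose and 4 fell with both agents, with a median log2 difference of 4.63 beside 5.41 with IL-1β, and 17 were partly back. Ccl5, a T cell chemokine, was at 0.152, 0.0452 and 0.203 CPM in untreated cells, 1377, 1185 and 1308 CPM with IL-1β and 356, 354 and 279 CPM with both, with no overlap of the groups. Ccl2, the monocyte chemokine, was at 762 ± 38.3 CPM with IL-1β and 353 ± 7.79 with both, against 0.633 ± 0.128 in control (mean ± SD, n = 3). Cxcl1 and Cxcl5, neutrophil chemokines, remained 11.04 ± 0.14 and 8.96 ± 0.078 above control on the log2 scale (SE), and Lif, an IL-6 family cytokine, 6.35 ± 0.14. Ccl7 and Cx3cl1 were 7.79 ± 0.15 and 3.76 ± 0.078 above control and were not called between the treated groups, with adjusted p-values of 0.847 and 0.172. The 4 genes that fell were Cxcl12, Il1rn, Csf1 and Ccl9. Il1rn, the natural antagonist of the IL-1 receptor, was further down, at 45.1, 44.7 and 47.4 CPM in control cells, 8.14, 6.60 and 9.45 CPM with IL-1β and 5.62, 4.94 and 5.25 CPM with both. Its doubly treated libraries are the lowest of the 9. Csf1, the macrophage growth factor, was at 301 ± 2.50, 279.9 ± 21.6 and 149.8 ± 5.60 CPM. Tnfsf11, the osteoclast factor RANKL, was further up (3.25 ± 0.41), at a low level of 6.16, 3.32 and 3.89 CPM. The receptor Il1r1 itself was at 59.96, 61.2 and 61.4 CPM, 34.1, 30.3 and 31.4 CPM and 49.5, 47.6 and 47.2 CPM, partly back.

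NF-κB subunits and feedback genes rose almost throughout: 21 of 22, with none lower and a median of 2.27 beside 2.87 with IL-1β. Nfkbia, the inhibitor IκBα, was at 6.62, 8.53 and 6.65 CPM in untreated cells, 658, 655 and 661 CPM with IL-1β and 346, 358 and 354 CPM with both. Tnfaip3, the ubiquitin-editing brake A20, was at 1.62 ± 0.186, 333 ± 16.7 and 118 ± 6.04 CPM (mean ± SD, n = 3, in the same order). Both were partly back, as 16 of the list were. Icam1, an adhesion molecule, was at 1073, 977 and 797 CPM with IL-1β and 188, 173 and 145 CPM with both, and remained 6.45-fold above control. Against this direction, Nfkbiz, the nuclear inhibitor-like factor IκBζ, was at 11.2, 9.21 and 10.1 CPM in control cells, 164, 172 and 175 CPM with IL-1β and 239, 226 and 301 CPM with both. Bcl3, another nuclear IκB protein, was at 1.92, 2.35 and 3.35 CPM, 21.9, 20.8 and 25.3 CPM and 34.9, 39.8 and 45.4 CPM in the same order. In both genes the doubly treated libraries are the highest, and the adaptor Traf2 was further up too (2.12 ± 0.059). Vcam1 was not called against control (0.21 ± 0.11; adjusted p = 0.0735, and called at 0.0491 without the first IL-1β library).

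Prostaglandin and nitric oxide genes were mostly raised, with 11 of 18 higher and 6 lower. Ptgs2, the inducible cyclooxygenase, was at 15.5, 14.2 and 12.8 CPM in untreated cells, 7819.6, 7609 and 7467 CPM with IL-1β and 3250.1, 3251 and 3254 CPM with both. It was partly back, unlike Nos2, which was not called between the treated groups, and it remained 229.5-fold above control. Ptges, the inducible prostaglandin E synthase, went from 946 ± 51.7 to 518 ± 9.60 CPM between the treated groups, against 9.31 ± 0.245 in control (mean ± SD, n = 3). Ptges2, a constitutive synthase, was further up (2.14 ± 0.087). Hpgd, which breaks prostaglandins down, was at −3.90 ± 0.48 from control (SE). Nos1, the neuronal nitric oxide synthase, was at 21.2 ± 1.10 CPM in control and 0.251 ± 0.294 with both.

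Acute phase and complement genes held more further increases than partial returns. Of 20 tested, 13 rose and 3 fell; 6 were further and 4 partly back. The summed level of the list was nevertheless lower with both agents, at 20361 to 21847 CPM against 24389 to 26250 CPM with IL-1β. Saa3, described above, stood at 7156 CPM with both against 13037 CPM with IL-1β. Lcn2, the iron-siderophore binding lipocalin, was at 19.2, 20.3 and 21.6 CPM in control cells, 8593, 8663 and 8123 CPM with IL-1β and 10138, 10289 and 9322 CPM with both. Libraries with both agents are the highest of the 9. Hp, haptoglobin, was at 10.6 ± 1.15, 121 ± 8.30 and 176 ± 4.52 CPM, and C4b, a complement component, at 179 ± 3.91, 404 ± 16.8 and 585 ± 10.8 CPM (mean ± SD, n = 3, in the order control, IL-1β, both). Ceruloplasmin (Cp) and the complement protease C1s1 were the other further increases beside Ptx3. C3, the central complement component, was partly back, at 1735 ± 92.2 CPM with IL-1β and 1176 ± 90.0 with both, and remained 7.60 ± 0.08 above control.

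C/EBP factors and the IL-6 receptor pathway are known as drivers of acute phase transcription. Of 20 listed genes tested, 15 rose, 5 fell and 6 were further than with IL-1β alone. Beside Cebpd these were Cebpb, at 16.3, 21.2 and 19.0 CPM in untreated cells, 96.4, 84.5 and 78.3 CPM with IL-1β and 113, 104 and 107 CPM with both, and Il6st, the shared receptor gp130, at 604, 587 and 579 CPM, 1174, 1192 and 1188 CPM and 1475, 1389.7 and 1544 CPM. In both the groups do not overlap. The receptors Osmr and Il6ra and the kinase Pim1 completed the 6, at 2.36 ± 0.041, 1.05 ± 0.089 and 4.32 ± 0.11 (SE). Stat3 and the feedback inhibitor Socs3 rose (1.40 ± 0.04 and 1.17 ± 0.082) and were not called between the treated groups (adjusted p = 0.0572 and 0.969). Jak2 was past control on the lower side, at 52.4 ± 0.815, 56.6 ± 2.54 and 40.6 ± 0.479 CPM. Its rise with IL-1β alone was near the threshold (log2 0.11, edgeR adjusted p = 0.0482). Junb was partly back (2.38 ± 0.073).

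Wnt ligands are what SFRP5 binds, so the genes of that pathway were read next. Of 10 secreted Wnt antagonists and co-receptors of such antagonists, 9 fell and 1, Kremen1, rose, and the median was −2.81 with both agents beside −3.69 with IL-1β. Frzb, the cartilage antagonist SFRP3, was at 266, 270.3 and 273 CPM in control cells, 15.9, 16.1 and 12.1 CPM with IL-1β and 14.9, 14.2 and 14.6 CPM with both. The treated groups overlap, and the combination was 18.5-fold below control. Sfrp2 was likewise at 3.25 ± 0.703 and 3.92 ± 0.0665 CPM against 116 ± 3.52 in control (mean ± SD, n = 3). Dkk3, a Dickkopf-family protein, was partly back, at 234, 252 and 253 CPM, 4.19, 5.75 and 4.50 CPM and 14.9, 17.6 and 15 CPM in the order control, IL-1β, both.

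Among Wnt ligands and receptors, 11 of 31 rose and 18 fell (median −0.969, and −1.36 with IL-1β). Fzd9, a frizzled receptor, was at 119 ± 2.83 CPM in control and 2.14 ± 0.735 with both, and Fzd8, Fzd2 and Fzd4 were partly back at −2.84 ± 0.07, −2.39 ± 0.063 and −3.39 ± 0.15. Fzd1 rose instead (1.86 ± 0.052). Wnt5a, the chief non-canonical ligand, was at 36.4, 38.0 and 36.6 CPM in untreated cells, 11.6, 12.5 and 10.7 CPM with IL-1β and 15.3, 15.8 and 12.8 CPM with both, and its receptors Ror1 and Ror2 were partly back too. Porcn, which adds the lipid that Wnt ligands need for secretion, was further up (2.09 ± 0.12). The co-receptor Lrp6 stayed low (−1.04 ± 0.042).

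Targets and transducers of β-catenin gave no single direction: 9 of 27 rose and 15 fell. Axin2, the usual reporter of canonical Wnt signalling, was at 1.46, 1.17 and 2.13 CPM in control cells, 3.77, 2.06 and 3.30 CPM with IL-1β and 1.28, 1.89 and 1.71 CPM with both. Its control and doubly treated libraries overlap, with an interval of −0.60 to 0.65 on the log2 scale and an adjusted p of 0.944, at a depth of 84 counts in the 3 doubly treated libraries together. Ctnnb1, β-catenin itself, was further down (656 ± 13.1, 476 ± 4.43 and 433 ± 19.3 CPM in the order control, IL-1β, both; mean ± SD, n = 3). Ccn5, a CCN protein also named for Wnt induction, was partly back, at 244, 245 and 243 CPM in untreated cells, 1.22, 1.03 and 1.25 CPM with IL-1β and 35.0, 29.8 and 27.3 CPM with both. It was still 7.92-fold below control. Nkd1 and Lef1, feedback and effector genes of the pathway, were at −4.68 ± 0.28 and −3.63 ± 0.28 and not called between the treated groups. Cd44, the hyaluronan receptor, was partly back at 3.35 ± 0.036.

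Antioxidant genes were mostly raised and partly back: 29 of 31 rose, 2 fell (Gpx4 and Sod1), and 22 were partly back. Their median was 2.17 with both agents and 3.03 with IL-1β. Slc7a11, the cystine importer, was at 28.5, 28 and 26.5 CPM in control cells, 1435, 1419 and 1411 CPM with IL-1β and 325, 311 and 301 CPM with both. Prdx6, a peroxiredoxin, was at 58.6 ± 1.65, 1694 ± 74.1 and 450.1 ± 32.2 CPM, and Txnrd1, thioredoxin reductase, at 77.6 ± 0.737, 1370.1 ± 30.8 and 501 ± 7.98 CPM (mean ± SD, n = 3, in the same order). All 3 genes remained above control without overlap. The metallothioneins Mt1 and Mt2, which bind zinc and copper, were 5.43 ± 0.056 and 6.07 ± 0.057 above control and not called between the treated groups (adjusted p = 0.191 and 0.477). Hmox1, heme oxygenase, was at 3.81 ± 0.044 with both and 3.96 ± 0.044 with IL-1β. Sod1 lost its call without the last of the 3 doubly treated libraries (adjusted p 0.0844).

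Glycolysis and hypoxia-response genes stayed raised. Of 33 tested, 32 rose, with a median of 2.71 beside 2.54 with IL-1β. More members were partly back (14) than further (8). The summed level of the list was 37434 to 38469 CPM with IL-1β and 34655 to 36189 CPM with both. The 1 that fell was Pfkfb4 (−0.60 ± 0.22), whose call was lost without the first doubly treated library (adjusted p 0.182). Slc2a1, the glucose transporter GLUT1, was at 123, 122 and 127 CPM in untreated cells, 3114, 3154 and 3002 CPM with IL-1β and 2814, 2834 and 2624 CPM with both, which leaves it 22.3-fold above control. Ldha, which makes lactate, was at 2.09 ± 0.031 and not called between treated groups (adjusted p = 0.0833). The lactate carrier Slc16a1 was further up, at 87.8, 89.2 and 87.3 CPM, 423, 431 and 410.1 CPM and 695, 706 and 712 CPM in the order control, IL-1β, both. The carbonic anhydrase Car12 and the collagen hydroxylase P4ha2 were further up as well (1.81 ± 0.093 and 2.71 ± 0.037). Subunits of oxidative phosphorylation were mildly lower: 19 of 23 fell, 2 rose (Ndufs3 and Uqcrfs1) and the median was −0.277.

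Cell cycle genes stayed low, with 29 of 36 fallen and 5 risen, a median of −2.34 beside −2.59 with IL-1β, and 20 partly back. Mki67, the proliferation marker Ki-67, was at 147, 153 and 144 CPM in control cells, 8.20, 5.81 and 5.58 CPM with IL-1β and 16.1, 16.7 and 13.2 CPM with both. The doubly treated libraries lie above IL-1β alone and 9.64-fold below control. Ccnd1, cyclin D1, was at 181 ± 7.47, 22.2 ± 1.29 and 29.0 ± 2.40 CPM (mean ± SD, n = 3, in the same order). Genes of the p53 response and apoptosis were raised in 19 of 27, lower in 6 and further than with IL-1β in 12. The BH3 genes Bbc3 and Pmaip1 were further up (1.37 ± 0.086 and 2.17 ± 0.15), as were the death receptor Fas (1.19 ± 0.093) and the CDK inhibitor Cdkn2b (1.23 ± 0.066), while Cdkn1a, p21, was partly back (2.03 ± 0.036).

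Genes of the TGF-β and BMP family had no common direction (17 of 42 higher, 20 lower). Thbs1, thrombospondin-1, which activates TGF-β, was at 17194, 16979 and 16694 CPM in untreated cells, 424, 433 and 492 CPM with IL-1β and 1262, 1157 and 1393 CPM with both. It was partly back and 13.3-fold below control. Inhba, the activin A subunit, stayed 5.32 ± 0.053 above control, and Ltbp2 and Tgfbr3 were further up (1.48 ± 0.043 and 0.97 ± 0.053). In the list of fibroblast-type matrix and contractile genes 9 of 26 rose and 16 fell. Fn1, fibronectin, was further up, at 27749, 26621 and 26858 CPM, 40536, 42800.5 and 38605 CPM and 46942, 48398 and 47295 CPM in the order control, IL-1β, both. Lum, the proteoglycan lumican, was further up too (1.18 ± 0.037), and Col6a3, a chain of pericellular collagen VI, was called with both agents (0.62 ± 0.029) and not with IL-1β (adjusted p = 0.0577). The smooth muscle actin Acta2 stayed at −3.64 ± 0.081.

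Of 20 hypertrophy and mineralization genes, 13 fell and 6 rose. Spp1, osteopontin, was further up, at 257, 261 and 242 CPM in control cells, 1863, 1879 and 1917 CPM with IL-1β and 2605, 2703 and 2807 CPM with both, and Enpp1, which makes the mineral inhibitor pyrophosphate, was further up as well (0.67 ± 0.052). Col10a1, the collagen of hypertrophic cartilage, stayed −0.71 ± 0.046 from control, and Pth1r, the PTHrP receptor, was partly back at −3.93 ± 0.17. Interferon-stimulated genes were lower in 10 of 20 and higher in 4, led by Gbp2 (3.62 ± 0.12) and Irf1 (1.68 ± 0.093), both partly back. Clock genes rose in 11 of 19 and fell in 6: Arntl, the clock activator BMAL1, stood at 3.08 ± 0.062, and the output genes Dbp and Per3 at −3.49 ± 0.14 and −3.20 ± 0.11. Among class I antigen presentation genes 10 of 18 rose and 5 fell, with H2-K1 at 3.13 ± 0.039; these histocompatibility genes share near-identical stretches, so their single values are uncertain. Of 31 genes of the unfolded protein response and of amino acid stress, 11 rose and 15 fell, and of 31 immediate early and heat shock genes 19 rose and 9 fell.

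Lymphocyte and erythroid markers were at or near 0 counts. None of the 9 lymphocyte markers and none of the 6 erythroid markers was abundant enough to be tested, and Cd3e, Cd3d, Cd8a, Ms4a1 and Nkg7 had no count in any library. Of 15 macrophage markers 6 were tested: Cd14, Cd68 and Mrc1 rose, Csf1r and Laptm5 fell and Lyz2 was not called, and their summed level was 17.7 to 19.0 CPM in control, 55.5 to 59.7 CPM with IL-1β and 37.8 to 43.3 CPM with both. Csf1r lost its call without the second (adjusted p 0.0625) or the third (0.143) control library, the first IL-1β library (0.0501), or the first (0.104) or second (0.0903) doubly treated library, and also with the replicate block (0.0532), by DESeq2 (0.0633) and without the low-count filter (0.072). Cd163 had no count, and Ptprc, the pan-leukocyte marker CD45, had 6, 12 and 6 counts in the 3 groups. Of 11 neutrophil markers, S100a8 and Camp were tested and rose, S100a8 at least 28.1-fold and Camp by a ratio of 272 (95% exact interval 48.3 to 10800), while S100a9, Ly6g, Ngp and Csf3r had no count. S100a8 had 0 counts in control and Camp 1. Both were abundant enough to be tested only through the treated groups, so the test could only find them higher. Of 9 endothelial markers 3 were tested and 2, Cdh5 and Tek, rose, with Emcn and Cldn5 at no count. The same limit holds for Cdh5, with 1 count in control, 87 with IL-1β and 42 with both. It also holds for Tek, with 18, 68 and 94 counts in the same order. Of 7 osteoclast markers 3 were tested: Acp5 rose and Nfatc1 fell. All 5 tested of 9 osteoblast markers and all 6 tested of 8 adipocyte markers fell, and Sost had no count. Bglap2 lost its call without the second control library (adjusted p 0.0774) or the first (0.0913) or second (0.0566) doubly treated library. Of 8 skeletal muscle markers 5 were tested and 1, Tnnt3, fell. Tnnt3, the osteoblast markers Sp7 and Ibsp and the adipocyte markers Plin1 and Cfd had few or no counts in both treated groups. Bglap had 20 counts with IL-1β and 17 with both, and Adipoq had 25 and 13. All of these markers were abundant enough to be tested only through control, so the test could only find them lower. Synovial fibroblast markers, which include Prg4, had a summed level of 200.1 to 206 CPM in control, 895 to 954 CPM with IL-1β and 1139 to 1172 CPM with both; of 8 tested, 4 rose and 2 fell. Besides Prg4, Pdpn rose from 34.3 ± 2.51 to 231 ± 6.30 CPM, Cd34 from 11.6 ± 1.72 to 15.8 ± 0.610 CPM and Has1 from 0.195 ± 0.0527 to 2.64 ± 0.227 CPM (mean ± SD, n = 3). Has1 was abundant enough to be tested only through the treated groups, so the test could only find it higher. Thy1 fell from 18.5 ± 1.54 to 4.54 ± 0.148 CPM and Pdgfra from 65.8 ± 1.43 to 46.4 ± 1.94 CPM. The part of other cell types in the increase of Prg4 and of the macrophage and neutrophil markers was not tested.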

How the data were processed

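The deposited table gives raw gene counts, as whole numbers, for 9 libraries, 3 in each group. Per the labels' protocols, RNA was made into NEBNext Ultra II Directional libraries, paired-end reads were trimmed with fastp and aligned to mouse mm10 with STAR, and RSEM produced the count for each gene. Versions, rounding, annotation release and strand setting are not given in the sources used here, so reads of overlapping antisense genes cannot be assigned apart. The table also lists a gene length in bases, an other-unit column as deposited, of unstated origin; it and the listed gene positions were not used. Of 56748 genes, 29182 had no count, and 15502 passed edgeR's filterByExpr.

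edgeR 4.0.16 (R 4.3.3) was run with TMM factors and the quasi-likelihood test in 1 fit over all 9 libraries, with Benjamini-Hochberg adjustment over all tested genes and a threshold of 0.05. SEs are Wald errors of that fit, and the common biological coefficient of variation was 4.97%. Folds against a group with no count use 3 counts over the group. Ratios with 1 to 3 counts carry exact 95% intervals. Alternatives were other scaling factors, DESeq2 1.42.0, no count filter, robust dispersions, a replicate block, other bounds, 6 libraries alone and leaving out each library. Same-numbered libraries' deviations from their group means correlated between −0.0364 and 0.0402, so numbers were not treated as pairs. Replicates differed by more than counting noise (chi-square per gene 2.2 to 4.79).

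Named genes were the 10 largest changes up and down, up to 8 back and 8 further per direction, 6 past control per direction (at least 5 CPM in 1 group, with unnamed gene models left out), Prg4, Adamts5, Cebpd, Vnn1, Ptx3, Sfrp5, defining genes and the extremes of each list. Further list members were chosen after their values were seen. The comparison, these genes and all gene lists were chosen with earlier results of these data known. Promoter windows came from RefSeq on GRCm38.p6, matched by gene symbol. Statistics were tested on simulated data. Some named genes are not reported here.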

Additional observations from a re-analysis of the deposited data

How the results depend on the processing

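With scaling by upper-quartile factors the median log2 difference of IL-1β plus SFRP5 from control over all genes was −0.157, a shift of −0.134 from the TMM value, the share of called genes that were higher went from 48.9% to 41.9%, and 8 genes lowered by IL-1β were back at control. With those factors 11 of the 855 genes recomputed one by one turned sign and were called in the TMM fit, the upper-quartile fit or both. Sign turns in genes called in neither fit were not counted. The 11 all had differences near 0: Col6a2 (−0.128), Ddit3 (−0.101), Dnajb9 (−0.0071), Ern1 (−0.133), Gpc6 (−0.00829), Htra1 (−0.115), Lats1 (−0.109), Lrp5 (−0.0103), Mgat1 (−0.00244), Sdhd (−0.124) and Yap1 (−0.127). Requiring at least 2-fold left 2661 higher and 2948 lower genes, by construction. A bound of 0.25 for genes back at control left 0 raised and 3 lowered, and a bound of 1 gave 128 and 159. Leaving out 1 library at a time gave 5629 to 6019 genes higher and 5853 to 6103 lower than control, 3 to 6 raised and 10 to 23 lowered genes back at control, 1297 to 1517 raised and 1067 to 1215 lowered genes partly back, 629 to 708 further higher and 355 to 451 further lower, and 36 to 48 past control higher and 25 to 46 lower. With the replicate block 5761 genes were higher and 6000 lower, 11727 of them shared with the fit without it, the calls of Csf1r, Cox5a (adjusted p 0.0515) and Fdps (0.0517) were lost and that of Masp1 gained, and 4 raised and 13 lowered genes were back at control. DESeq2 called 5708 higher and 5726 lower, and a fit of the 6 compared libraries called 5706 and 5994. Of 158 recomputed counts 148 stayed within 1.5 times of the value reported. Over these 855 genes and all settings, 270 of 13670 values lost a call and 45 gained one. Prg4, Cebpd, Vnn1 and Ptx3 were further from control than with IL-1β alone in each of the settings that refit the model. Genes of few counts, such as Axin2, Has1 and Nos1 in treated cells, have wide errors, and depth limits what can be said of them.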
